A study of Drosophila melanogaster with 8 samples.

Results

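The genes described here are Tektin-C, Mis12, tut and HipHop, 4 of the 11982 genes that have a probe set of their own on the array. They were picked because they were higher in dTip60E431Q than in control flies under EE, apart from Tip60 itself. Each has 1 probe set, so 4 of 18769 tested probe sets are followed. The values under EE chose these genes, so they are given as a description with no test. The 4 are a subset of the 7 genes with 1 symbol that were called higher under EE besides Tip60, and the others are CG13067, sr and CG6891. The rule names the EE arrays only, so the ISO differences carry the test, although their spread was estimated over all 8 arrays, EE included. The 4 were also grouped as high in both housings with the ISO results known. CG6891 was called under ISO with 1 of its probe sets but left out, and CG13067 and sr, also left out, were not called there. The ISO calls of the 4 are therefore not independent evidence.

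The study asked whether Tip60 HAT action is needed for the transcriptional response of mushroom body (MB) neurons to environmental enrichment. Control flies carried UAS-mCD8-GFP, and mutant flies carried UAS-mCD8-GFP with UAS-dTip60E431Q, a dominant negative, HAT-defective Tip60, both driven by the MB driver OK107-GAL4 in the progeny of a cross to that driver line. Newly eclosed flies of both sexes spent 5 days in a group of 30 (EE) or alone (ISO), and GFP-positive cells were then sorted by FACS from pooled, dissociated brains. There were 4 groups of 2 arrays: control ISO, dTip60E431Q ISO, control EE and dTip60E431Q EE. The labels give an age of 5 days for 7 arrays and 6 days for dTip60E431Q ISO replicate 2. OK107-GAL4 also drives expression in some cells outside the MB, for example in the optic lobes, and GFP alone does not separate these from Kenyon neurons. In such bulk samples, fewer cells of a type and less RNA per cell cannot be told apart. The UAS transgene and any other difference between the 2 fly lines cannot be told apart in this design. The sources used here do not state whether replicate arrays were made from separate pools of flies, and the p-values then reflect array-to-array spread alone, possibly technical in origin.

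The 4 genes act in different places in the cell, and none is known mainly as a gene of neurons. Tektins are filament proteins that run along the paired microtubules of cilia and of sperm tails. Mis12 is a subunit of the kinetochore complex that joins centromeric chromatin to the microtubule-binding Ndc80 complex when a cell divides. Tut (tumorous testis) is an RNA-binding protein that acts with Bam and Bgcn in the male germ line to repress translation of target mRNAs and to end the mitotic divisions of spermatogonia. HipHop is a subunit of the protein cap that keeps fly chromosome ends from being fused, together with the HOAP protein encoded by cav and with heterochromatin protein 1. Kenyon neurons do not divide and bear no motile cilia.

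The targeted gene checks the genotype labels. Tip60 read 8.41 and 8.07 on the log2 scale in control ISO, 9.64 and 9.64 in dTip60E431Q ISO, 8.18 and 8.09 in control EE, and 9.88 and 10.14 in dTip60E431Q EE, so all 4 dTip60E431Q arrays lay above all 4 control arrays. The files do not show how much of this signal comes from transgene mRNA and how much from the endogenous gene. Median log2 signals of the arrays lay between 6.41 and 6.5, and the 2 dTip60E431Q ISO arrays were closer to each other (SD of their differences over probe sets 0.183) than the other pairs (0.358 to 0.479). Of 11 measured Kenyon neuron markers none was called between genotypes in either housing (limma, adjusted over all probe sets). Of all probe sets, 0.799% were called under ISO and 0.181% under EE, so this says little for 11 markers. At an unadjusted p under 0.05 with a fold of 1.3 none passed under ISO and 1, prt, was lower under EE. All 11 lay a little below 0 under ISO, with a median log2 difference of -0.15. Markers of other cell types were bright too. In control ISO the median log2 signal was 9.96 to 10.11 for Kenyon neuron, 10.68 to 10.96 for glial and 10.57 to 11.46 for photoreceptor markers. It was 8.2 to 9.85 for fat body, 7.48 to 8.0 for hemocyte and 4.36 to 5.64 for midgut markers. The share of cells outside the MB in these samples was not tested.

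Tektin-C had the widest difference of the 4 genes. Its log2 signal was 5.53 and 5.37 in the control ISO arrays and 8.81 and 9.02 in the dTip60E431Q ISO arrays. It was 5.47 and 4.95 in control EE and 8.79 and 8.52 in dTip60E431Q EE. No dTip60E431Q array overlapped a control array, and the lowest dTip60E431Q value stood 2.99 above the highest control value. Under ISO, Tektin-C rose 11-fold (log2 difference 3.46, SE 0.20, 95% confidence interval 3.0 to 3.93, limma adjusted p = 0.000397, n = 2 per group). The control signals were dimmer than the median probe set of each array and no detection call was used here, so how far they exceed background is unknown and the size of the fold is uncertain.

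**Figure D1:**
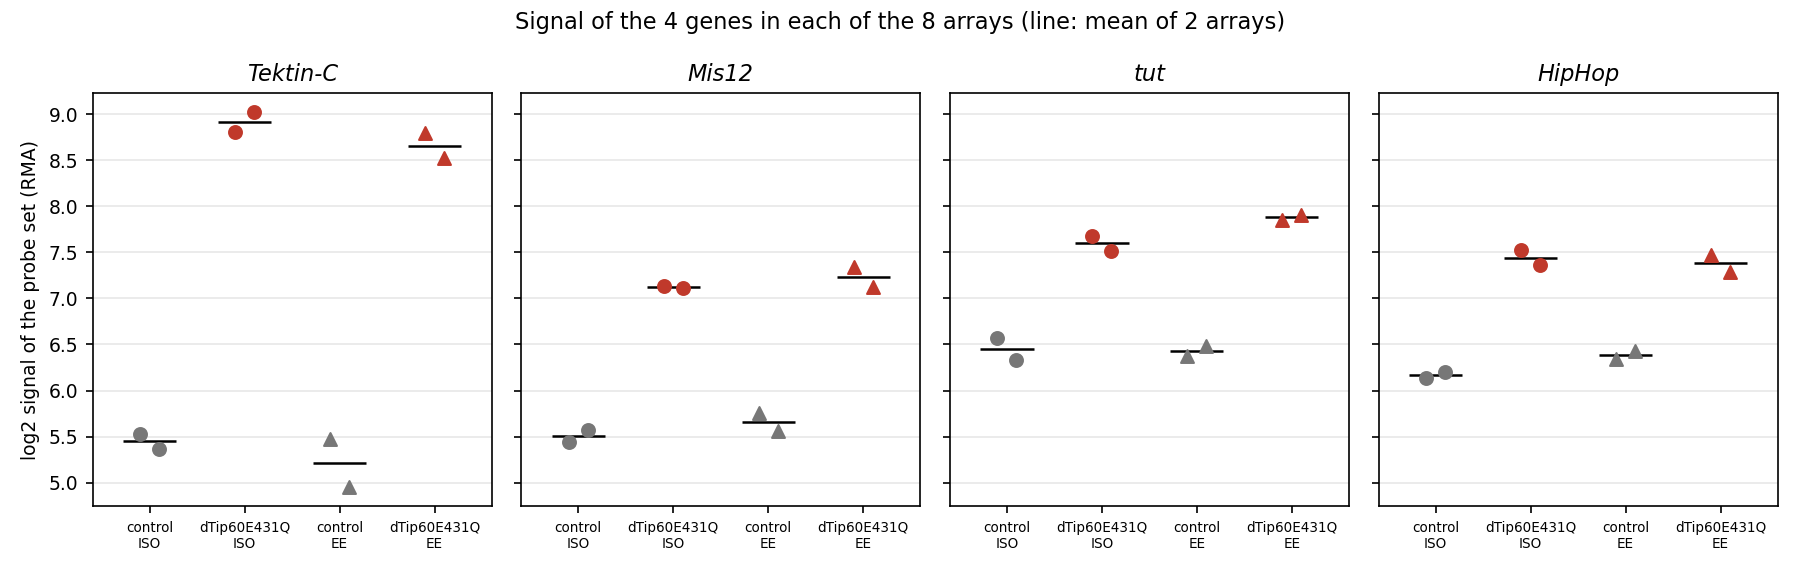
Log2 signal (RMA) of Tektin-C, Mis12, tut and HipHop in each of the 8 arrays, with control in grey, dTip60E431Q in red, ISO as circles, EE as triangles and a line at the mean of the 2 arrays of a group. In each panel all 4 dTip60E431Q arrays lie above all 4 control arrays, by 2.99 for Tektin-C and by 0.86 for HipHop between the nearest arrays.

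Mis12 gave nearly the same reading in both housings. The control ISO arrays read 5.44 and 5.57 and the dTip60E431Q ISO arrays 7.13 and 7.11, while control EE read 5.76 and 5.56 and dTip60E431Q EE 7.34 and 7.12. The groups did not overlap, with a gap of 1.35 between the nearest arrays of the 2 genotypes. Under ISO, Mis12 rose 3.06-fold (log2 difference 1.61, SE 0.13, 95% confidence interval 1.31 to 1.92, limma adjusted p = 0.00245, n = 2 per group). Its control signals too were dimmer than the array medians.

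The germ line regulator tut lay near the array medians in control. It read 6.57 and 6.33 in control ISO, 7.68 and 7.51 in dTip60E431Q ISO, 6.37 and 6.48 in control EE, and 7.85 and 7.90 in dTip60E431Q EE. Every dTip60E431Q array lay above every control array, and the nearest were 0.93 apart. Under ISO, tut rose 2.21-fold (log2 difference 1.15, SE 0.13, 95% confidence interval 0.84 to 1.45, limma adjusted p = 0.0116, n = 2 per group). This call did not hold with the ISO arrays alone in the fit (adjusted p = 0.0915), without dTip60E431Q ISO replicate 1 (adjusted p = 0.166) or replicate 2 (adjusted p = 0.0956), or with that pair averaged as 1 sample (adjusted p = 0.125).

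HipHop had the smallest gap between genotypes. The control ISO arrays gave 6.14 and 6.20 and the dTip60E431Q ISO arrays 7.52 and 7.36. Under EE it was 6.34 and 6.43 in control and 7.47 and 7.29 in dTip60E431Q, and the genotypes did not overlap, with 0.86 between the nearest arrays. Under ISO, HipHop rose 2.41-fold (log2 difference 1.27, SE 0.12, 95% confidence interval 0.99 to 1.55, limma adjusted p = 0.0043, n = 2 per group). The call was lost without dTip60E431Q ISO replicate 1 (adjusted p = 0.0776) and with the pair averaged as 1 sample (adjusted p = 0.0639). The suffix of this probe set marks probes that can match more than 1 transcript, and ms(3)K81, the testis paralog of HipHop, has no probe set of its own in the annotation used here, so a share of that paralog in the signal cannot be told apart.

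Under ISO, 4 of 4 genes were called higher, a count that the grouping largely set, while 0.618% of all probe sets were (116 of 18769) and 0.181% were called lower. Calls in either direction made up 0.799% of probe sets under ISO and 0.181% under EE, and 0.671% for the interaction of genotype and housing. An absence of overlap alone says little with 2 arrays per group: 4 of 4 genes had it under ISO, and 23.8% of all probe sets did in the same direction (21.2% under EE). An exact permutation test of 2 arrays against 2 cannot give a two-sided p below 0.333. The calls therefore rest on the spread that limma shares across arrays and probe sets, the EE arrays that chose the genes included. With the ISO arrays alone in the fit, the limma adjusted p was 0.00376 for Tektin-C and 0.0174 for Mis12. It was 0.043 for HipHop and 0.0915 for tut, which lost its call. The methods' t-test called 684 probe sets under ISO before Benjamini-Hochberg adjustment and none after it, with an adjusted p of 0.388 to 0.53 for the 4 genes.

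The sizes under EE, which chose the genes, lay near those under ISO. The log2 difference under EE was 3.45 for Tektin-C, 1.57 for Mis12, 1.45 for tut and 0.99 for HipHop, with 0.0586% of all probe sets called higher in that contrast (11 of 18769) and 0.123% lower. The EE difference minus the ISO difference was -0.02 for Tektin-C (95% confidence interval -0.67 to 0.64) and -0.04 for Mis12 (-0.48 to 0.39). It was 0.31 for tut (-0.12 to 0.74) and -0.28 for HipHop (-0.67 to 0.11). All 4 intervals include 0 and are wide, which does not show that the housings gave the same difference, and since the EE arrays chose the genes no test is given. Within a genotype, EE minus ISO ran from -0.25 for Tektin-C to 0.22 for HipHop in control, and from -0.26 for Tektin-C to 0.28 for tut in dTip60E431Q.

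Adjusted p-values of the 4 under EE come from the values that chose them, so they describe the choice and are no test. HipHop stood nearest to the inside of the EE threshold among the 4, at an adjusted p of 0.0441. Under EE each of the 4 lost its call when an array was left out, with an adjusted p of 0.053 for Tektin-C without control EE replicate 2, and of 0.101 for Mis12, 0.192 for tut and 0.334 for HipHop without control EE replicate 1. HipHop also lost it with the replicate block (adjusted p = 0.0784). Just outside were ninaD, a scavenger receptor for carotenoids (log2 difference 1.2, adjusted p = 0.0529), and the second probe set of CG6891 (1.3, adjusted p = 0.0553). Of the 11 probe sets called higher under EE, 8 carry 1 gene symbol: the 4 genes, Tip60, CG13067, the zinc finger gene sr and CG6891. The rest, with no single symbol, differed by 2.98, 2.52 and 1.33 under EE. In the same order they stood at 2.73, 2.79 and 0.14 under ISO (limma adjusted p = 0.0135, 0.00781 and 0.764). Of the 11, 8 (72.7%) were also called higher under ISO, and these are 6.9% of the 116 called there. CG13067 (0.82, SE 0.17, adjusted p = 0.109) and sr (0.37, SE 0.14, adjusted p = 0.334) were not called under ISO, while CG6891 rose there by 1.46 (SE 0.22, adjusted p = 0.046, limma, n = 2 arrays per group).

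The other 112 probe sets called higher under ISO had a median log2 difference of 2.32 under ISO, which chose them, and of -0.05 under EE (quartiles -0.44 to 0.18), and 61 of them lay below 0 there. Markers of gut and fat body were among the genes that moved with genotype under ISO. Of 8 measured midgut markers, 4 were called higher under ISO, with a list median of 3.87, and none was called under EE, where the median was 0.13 and none passed the unadjusted threshold. The summed log2 signal of these markers was 8.05 to 9.83 in control ISO, 13.18 to 13.24 in dTip60E431Q ISO, 7.53 to 9.21 in control EE and 8.01 to 9.98 in dTip60E431Q EE. Of 13 fat body markers, 4 were called higher under ISO (median 1.25) and 3 lower under EE (median -1.16). Uncalled midgut markers under EE included Jon65Aiv at 1.33 (SE 0.77) and alphaTry at 1.19 (SE 1.87). Other markers lay above 0 in both housings, as the 4 genes did. All 5 measured photoreceptor markers were above 0 under ISO (0.56 to 1.57, median 0.99) and under EE (0.24 to 0.56, median 0.45), with none called and 1 past the unadjusted threshold under ISO. Their summed log2 signal was 13.27 to 14.12 in control ISO, 14.48 to 14.51 in dTip60E431Q ISO, 13.32 to 14.33 in control EE and 14.17 to 14.25 in dTip60E431Q EE. Of 6 muscle markers none was called, and the list medians were -0.53 under ISO and 0.09 under EE. The flight muscle actin gene Act88F differed from the rest, at 1.44 under ISO (SE 0.58, adjusted p = 0.364) and 1.70 under EE (SE 0.58, adjusted p = 0.567). The other muscle markers, Mlc2, up, Tm2, sls and bt, all lay below 0 under ISO (-0.65 to -0.47) and from -0.09 to 0.39 under EE. The part of any of these cell types in the values of the 4 genes was not tested.

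**Figure D2:**
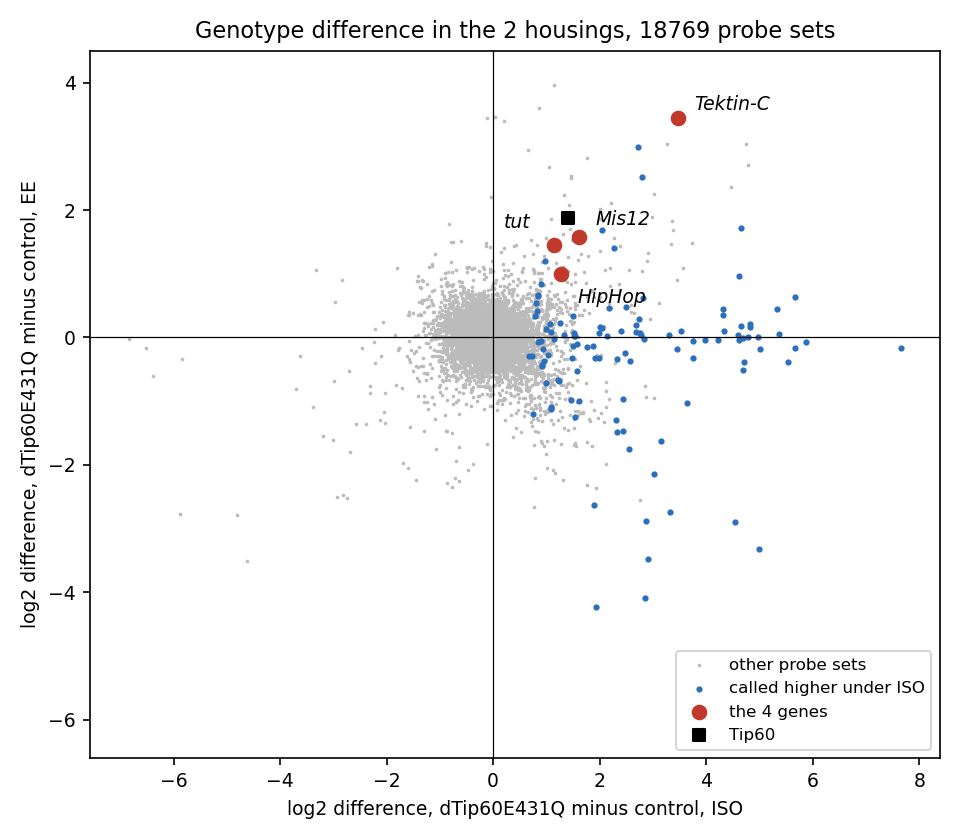
Log2 difference of dTip60E431Q minus control under ISO (x axis) and under EE (y axis) for all 18769 probe sets, with the 116 called higher under ISO in blue unless they are one of the 4 genes (red) or Tip60 (black square). The 4 genes were chosen by their EE values and the other 112 by their ISO values alone (median -0.05 on the EE axis), so their separation on the EE axis follows from how they were chosen.

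The other genes of each pathway were then followed, from lists put together by function. The 7 lists hold 171 measured genes besides the 4 and Tip60. None was called in either housing with limma, where 0.799% of all probe sets were under ISO and 0.181% under EE. The methods' t-test after adjustment called none. Under ISO 6 were higher and 7 lower at an unadjusted p under 0.05 with a fold of 1.3, where 5.24% of all probe sets were higher and 4.9% lower. Under EE 5 were higher and 10 lower, where 2.43% and 2.66% of all probe sets were.

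Among 21 other kinetochore and centromere genes, 2 were higher and 1 lower under ISO at the unadjusted threshold, with a median log2 difference of 0.04 (0.02 under EE). Under EE 1 was higher, the kinetochore gene Spc105R (0.75, SE 0.24, limma adjusted p = 0.514, and 0.29 under ISO), and 1 was lower, cal1. Partners of Mis12 in its own complex were not called. Nnf1a stood at 0.48 under ISO (SE 0.13, adjusted p = 0.198) and 0.08 under EE, and Kmn1, the fly counterpart of Nsl1, at 0.00 (SE 0.11) and 0.18. Nnf1b, which was dim, stood at 0.39 under ISO and 0.25 under EE (SE 0.26 in both). The centromere assembly factor gene cal1 stood at -0.57 (SE 0.16, adjusted p = 0.207) and -0.39 (limma, n = 2 arrays per group). Of 31 genes of the cell division cycle, none passed the unadjusted threshold under ISO and 2 were higher and 2 lower under EE, with medians of 0.01 and -0.08.

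Telomere capping genes other than HipHop had no gene above the unadjusted threshold in either housing. Of 13 measured, 2 were lower at that threshold under ISO and 3 under EE, with medians of -0.06 and 0.01. The HOAP gene cav stood at -0.63 under ISO (SE 0.19, adjusted p = 0.235) and at 0.01 under EE. The gene of heterochromatin protein 1 differed by -0.06 (SE 0.10) and 0.04.

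Of 39 other genes of cilium and axoneme, 1 was higher at the unadjusted threshold under ISO and 1 under EE, with a median of 0.03 in both. The one under ISO was nompA, which links sensory cilia to the cuticle, at 1.40 (SE 0.28, adjusted p = 0.101), and it stood at -0.50 under EE. Tektin-A, a second fly tektin, was dim, with means of 3.22 and 3.29 in the control and dTip60E431Q ISO arrays, and its differences were 0.07 (SE 0.11) and 0.06. Among markers of ciliated sensory neurons the median difference of 9 genes was 0.10 under ISO and 0.03 under EE.

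For tut, the partner genes bam and bgcn were dim and were not called. Under ISO the mean log2 signal of bam was 3.94 in control and 4.19 in dTip60E431Q (difference 0.24, SE 0.29), and that of bgcn was 3.35 and 3.49 (0.14, SE 0.14). The tumour suppressor gene mei-P26, whose mRNA the complex represses, stood at -0.21 under ISO (SE 0.12) and -0.06 under EE. Among 18 other genes of germline translational control, 2 were higher at the unadjusted threshold under ISO, the piRNA pathway gene aub (0.90, SE 0.17, adjusted p = 0.0961) and the ovarian gene otu (0.97, SE 0.30, adjusted p = 0.235), and under EE they stood at 0.45 and -0.71. Under EE 1 of the 18 was higher at that threshold, again aub (limma adjusted p = 0.633), so aub passed it upward in both housings. Lower at that threshold under EE were 2, otu and osk (-1.26, SE 0.40, limma adjusted p = 0.514), and osk stood at 0.83 under ISO. The median of the 18 was 0.04 under ISO and 0.01 under EE.

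Genes of the testis had a median below 0 under ISO. Of 37 measured testis genes, 1 was higher and 4 lower at the unadjusted threshold, with a median of -0.28, against 0.00 over all probe sets, and under EE the median was 0.07 with 1 lower. The median log2 signal of the list was 3.68 in one control ISO array and 4.34 in the other, against 3.72 to 3.73 in dTip60E431Q ISO, so by this median only one of the control arrays stood above the dTip60E431Q arrays. Among 10 male germ line markers the median was -0.26 under ISO and 0.03 under EE. Their summed log2 signal was 7.28 to 7.91 in control ISO, 7.14 to 7.15 in dTip60E431Q ISO, 7.29 to 7.32 in control EE and 7.24 to 7.40 in dTip60E431Q EE. The testis gene can stood at -1.21 under ISO (SE 0.26, adjusted p = 0.121) and djl at -1.17 (SE 0.26, adjusted p = 0.13). Of 12 other Tip60 complex genes none passed the unadjusted threshold under ISO, with pont, a helicase of the complex, at 0.20 (SE 0.13, adjusted p = 0.588), and 1 was lower under EE, with pont at -0.40.

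**Figure D3:**
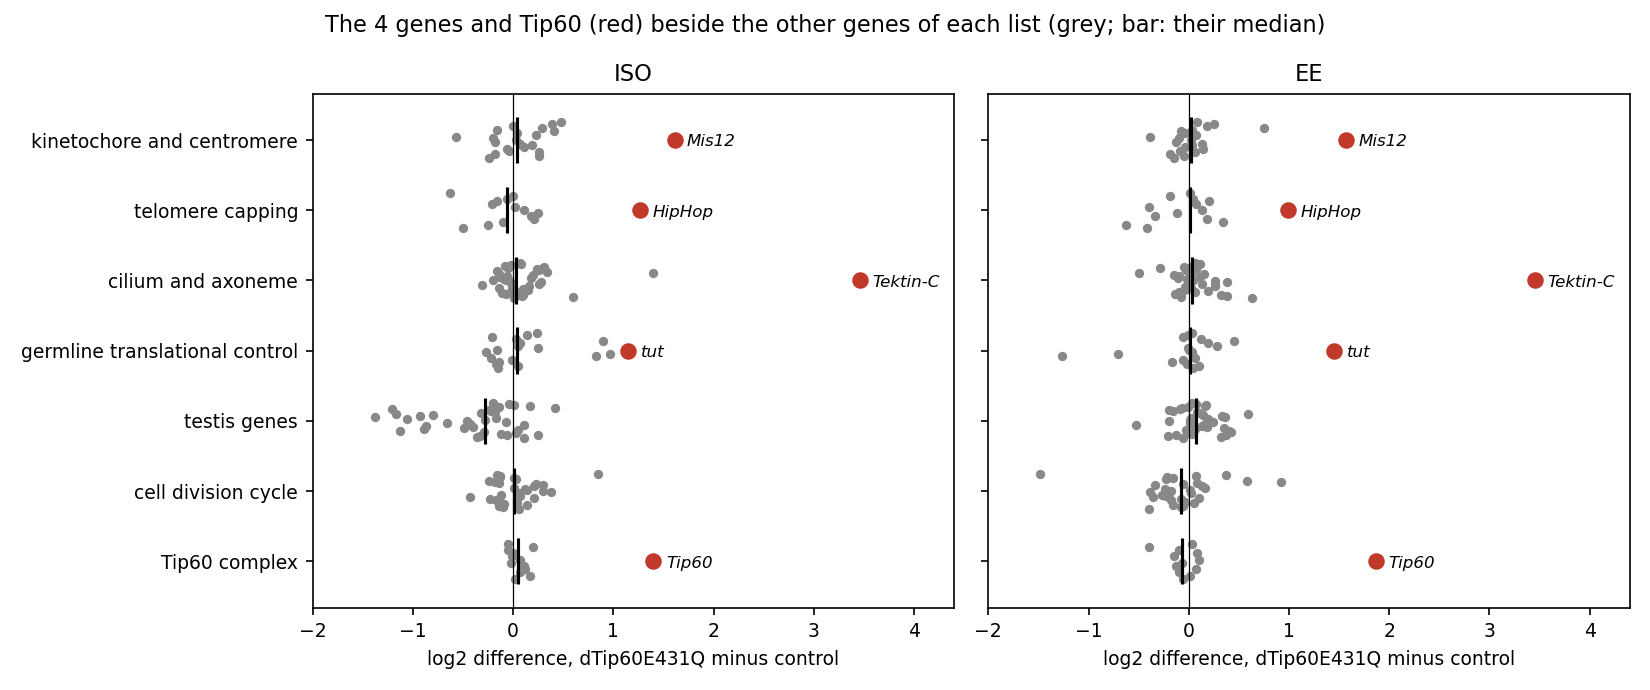
Log2 difference of dTip60E431Q minus control (x axis) under ISO (left) and EE (right) for the other measured genes of 7 lists (grey points, bar at their median), with the 4 genes and Tip60 in red on the list they belong to. List medians lie between -0.28 and 0.04 under ISO and between -0.08 and 0.07 under EE, and no grey point passed the adjusted test.

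All 4 genes lie on chromosome arm 3L in the RefSeq annotation (Release 6), a feature that the rule did not use. Of 13534 tested probe sets with a located gene, 19.7% are on 3L. Along the arm the order is Tektin-C, Mis12, tut and HipHop, with 154, 185 and 1551 annotated genes between consecutive members. The arm holds 31 of the 99 other located probe sets called higher under ISO (31.3%). It holds 15 of the 58 located probe sets, besides these 4, that were higher in both housings at the unadjusted threshold (25.9%). The median difference over the whole arm was 0.01 under ISO and 0.02 under EE, as on the other large arms (0.01 to 0.02). Of 8 located probe sets called higher under EE, 5 are on 3L. Of 6 called higher in both housings, 4 are these genes and 2, Tip60 and CG6891, are on X. CG6891 was thus called in both housings with its first probe set, near the threshold (limma adjusted p = 0.046 under ISO and 0.0498 under EE), but is not on 3L. Its second probe set was called in neither housing (0.75, limma adjusted p = 0.133 under ISO, and 1.3, 0.0553 under EE). With 4 genes that were chosen by their values, no test of position is given.

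**Figure D4:**
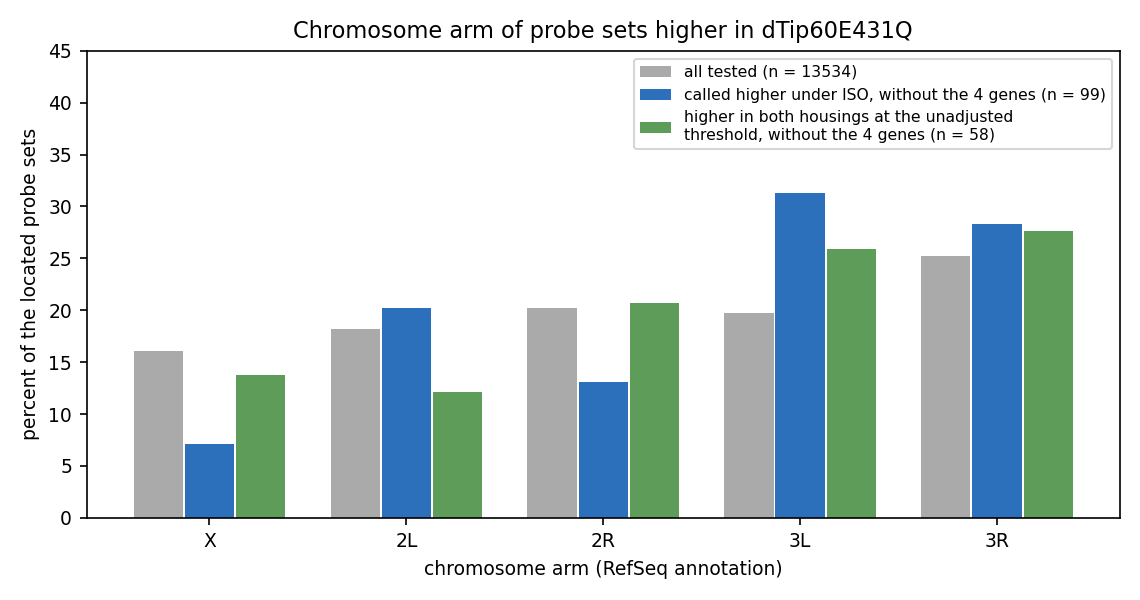
Percent of located probe sets (y axis, from 0) on each large chromosome arm (x axis) for all tested probe sets in grey, for those called higher in dTip60E431Q under ISO in blue, and for those higher in both housings at the unadjusted threshold in green, with the 4 genes left out of the last 2 sets. On 3L the bars stand at 19.7%, 31.3% and 25.9%.

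No measured neighbour of the 4 genes was called, which says little for so few probe sets. Of all probe sets, 0.799% were called under ISO and 0.181% under EE. Of the 24 nearest annotated neighbours, 3 on each side of each gene, 20 have a probe set, and none of these overlaps the gene. In both housings (limma, adjusted over all probe sets) their differences ran from -0.62 to 0.46 under ISO and from -0.78 to 0.31 under EE. Beside Tektin-C, the ubiquitin ligase gene Bre1 stood at -0.10 under ISO (SE 0.12) and the kinase gene S6k at 0.21 (SE 0.11). Beside HipHop, the catalase gene Cat stood at 0.16 (SE 0.16), and beside tut CG8012 stood at -0.56 (SE 0.17, adjusted p = 0.225) and at -0.78 under EE (SE 0.17, adjusted p = 0.275). Between Tektin-C and Mis12, 121 probe sets were tested, of which 5 were called higher under ISO, where 0.618% of all probe sets were, and 0 under EE, with medians of 0.05 and 0.01. Between Mis12 and tut, 175 were tested, of which 2 were called higher and 1 lower under ISO and 0 under EE, with medians of 0.04 and 0.01. Between tut and HipHop, 1174 were tested, of which 17 were called higher and 3 lower under ISO and 1 higher and 1 lower under EE, with medians of 0.02 in both.

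**Figure D5:**
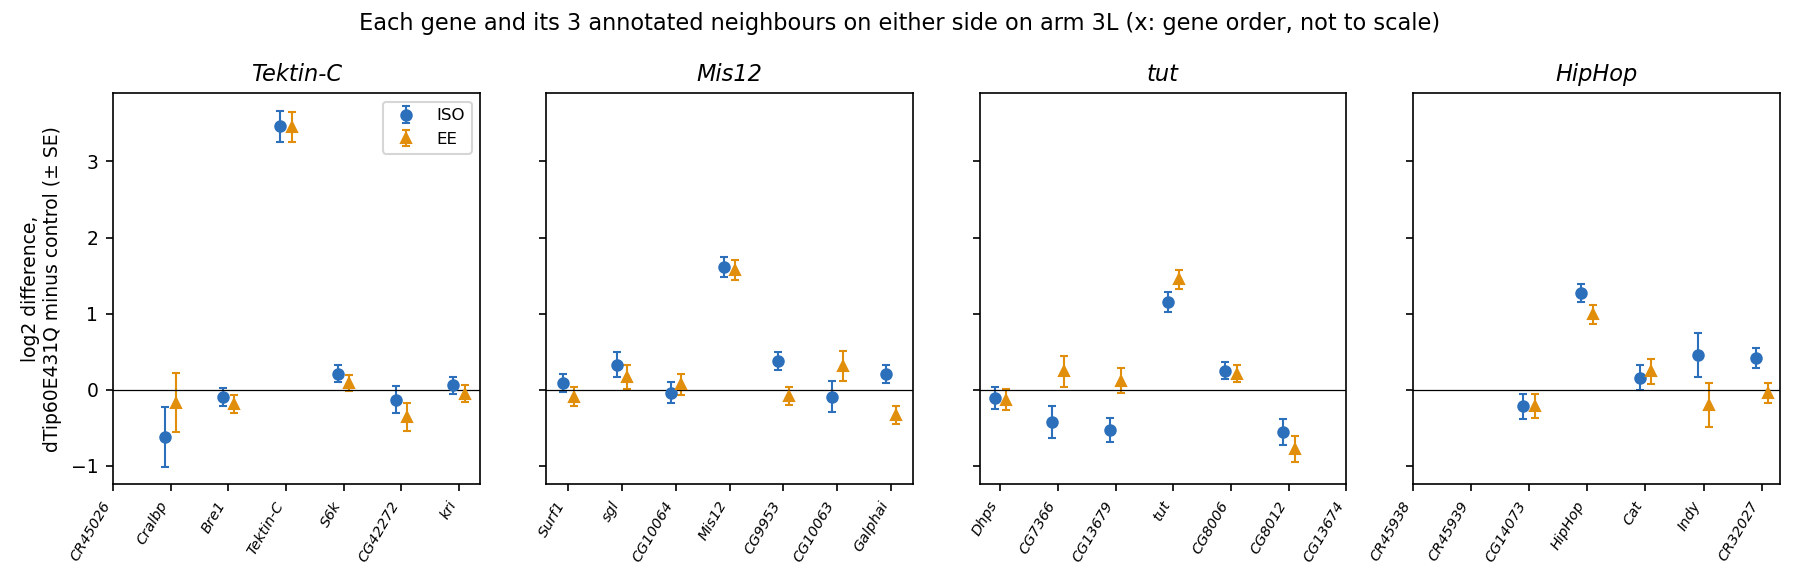
Log2 difference of dTip60E431Q minus control (y axis, with SE from limma) under ISO (blue circles) and EE (orange triangles) for each of the 4 genes and its 3 annotated neighbours on either side, in chromosome order and not to scale; a name with no point has no probe set of its own. Neighbours lie between -0.78 and 0.46, against 0.99 to 3.46 for the 4 genes.

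The 4 genes followed one another closely across arrays. Over the 8 arrays, Pearson correlations of log2 signal between the members ran from 0.960 (tut and HipHop) to 0.987 (Mis12 and HipHop). All arrays of a genotype share the fly line, and these genes were chosen for a genotype difference, so the values are a description. Among 2189 probe sets with 1 gene symbol and an SD of at least 0.3, the gene most like tut was Tip60 itself (r = 0.993), followed by Mis12 (0.971) and the second probe set of CG6891 (0.963). The genes most like Tektin-C were Mis12 (0.985), CG11437 (0.978) and CG31076 (0.973). Those most like Mis12 were HipHop (0.987), Tektin-C (0.985) and CG5895 (0.973), and those most like HipHop were Mis12, CG5895 (0.975) and Tektin-C (0.969). Of the genes besides the 4, CG11437 (log2 difference 0.85 under ISO and 0.65 under EE) and CG5895 (0.85 and 0.67) are on 3L, CG31076 (0.92 and 1.19) is on 3R, and CG6891 (0.75 and 1.3 for this probe set) and Tip60 are on X.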

How the data were processed

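Sorted-cell RNA was hybridized as biotin-labelled cRNA to Affymetrix Drosophila arrays. The deposited values are log2 signals that the authors obtained with RMA, which subtracts background, applies quantile normalization and summarizes each probe set (version not given in the sources used here). They were used without further scaling. The files hold 18952 probe sets, from which 183 Affymetrix controls were left out. Of the 18769 tested, 13647 have 1 gene symbol in the array annotation, 402 have several and 4720 none. Gene names and neighbours came from RefSeq (Release 6), matched by gene ID, and no coordinates are given because the array build is not stated.

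Groups came from the sample titles. R 4.3.3 and limma 3.58.1 were used with a mean for each group and the spread estimated over all 8 arrays (4 residual and 2.91 prior degrees of freedom). A probe set counted as called with a fold of at least 1.3 and p under 0.05 after Benjamini-Hochberg adjustment over all those tested. The unadjusted threshold is p under 0.05 with the same fold. In lists, the brightest probe set stood for its gene. Steps were tested on simulated data.

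Genes named were drawn from the members, Tip60 and the other genes with 1 symbol called higher under EE. Others came from list members called or of smallest p, the 3 neighbours on each side and the 3 genes most correlated with each member. Not every list gene or neighbour that qualified is named. Direct partners of the members and list genes with known roles were named besides. Members and lists were chosen with earlier results of these data known. The 7 gene lists hold 171 measured genes besides the members and Tip60. Markers of neurons, glia and hemocytes were also followed, with median differences under ISO of -0.15, 0.10 and 0.55 and under EE of 0.06, 0.03 and -0.28, and none was called. All 12 hemocyte markers lay above 0 under ISO, and 7 were higher at the unadjusted threshold, where 5.24% of all probe sets were. Under EE 3 of the 12 lay above 0 and 1 was lower at that threshold. All 9 glial markers lay above 0 under ISO, with 2 past that threshold.

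Arrays with the same replicate number did not deviate together in every pair (correlations -0.0862 to 0.312), so the numbers were not taken to pair the samples. Alternatives were other normalizations, fits, filters and tests, and each array left out in turn.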

Additional observations from a re-analysis of the deposited data

How the results depend on the processing

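The 4 genes kept a positive difference under every alternative run, in both housings, but many alternatives change the spread and leave the difference as it is. Since the groups did not overlap, leaving out an array could not reverse the sign. Under ISO, 61 of 71 alternative values for them kept the call and 10 lost it. The 61 include the looser fold of 1.1, with which no call could be lost. The methods' t-test after adjustment lost it for Tektin-C (3.46, adjusted p = 0.388), Mis12 (1.61, 0.391), tut (1.15, 0.53) and HipHop (1.27, 0.446). tut also lost it with only the ISO arrays (1.15, adjusted p = 0.0915), where fewer arrays estimate the spread. With the dTip60E431Q ISO pair averaged as 1 sample, tut (1.15, adjusted p = 0.125) and HipHop (1.27, 0.0639) lost it. With each array left out, the ISO difference ran from 3.35 to 3.57 for Tektin-C, 1.55 to 1.68 for Mis12, 1.02 to 1.27 for tut and 1.19 to 1.35 for HipHop. Mis12 has no value when probe sets of low signal (mean below 6.46) are left out.

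Counts of calls moved more. Under ISO the 150 calls became 94 with only the arrays compared, 57 without probe sets of low signal, 0 with the methods' t-test (684 before adjustment), 48 with the pair averaged, and 49 to 952 with each array left out, the highest without control ISO replicate 2, 49 without dTip60E431Q ISO replicate 1 and 51 without its replicate 2. Under EE the 34 became 21 with cyclic loess, 16 with only the arrays compared, 21 with the replicate block, 19 with 1 probe set per gene, 0 with the methods' t-test (371 before adjustment), 5 with the pair averaged, and 0 to 69 with each array left out, with 0 without control EE replicate 2, 2 without its replicate 1, 17 without dTip60E431Q EE replicate 2, 5 without either dTip60E431Q ISO array and 69 without either control ISO array. For the interaction of genotype and housing the 126 became 46 without probe sets of low signal, 45 with the pair averaged and 44 to 638 with each array left out. The cause of these changes was not tested. The replicate block changed no call of the 4 genes under ISO but ended that of HipHop under EE (adjusted p = 0.0784). Such EE values of the 4 are again a description, since EE chose the genes. With only the EE arrays, Mis12 (adjusted p = 0.0803) and HipHop (0.14) also rose above 0.05 under EE. With the dTip60E431Q ISO pair averaged, or either of its arrays left out, so did Mis12 (0.0794), tut (0.0794) and HipHop (0.171), and with the methods' t-test all 4 did (0.837). With each array left out, the highest adjusted p under EE was 0.053 for Tektin-C, 0.101 for Mis12, 0.192 for tut and 0.334 for HipHop. Mis12 stayed below 0.05 without dTip60E431Q EE replicate 2 (0.048), while tut and HipHop rose above it without any 1 of the 4 EE arrays. Precision is limited by having 2 arrays in each group.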
